A study of Homo sapiens with 6 samples.

Results

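The genes described here are 10 interferon-induced genes of the IFIT, IFITM, IFI44 and GBP families: IFIT1, IFIT2, IFIT3, IFITM1, IFITM2, IFITM3, IFI44, GBP2, GBP3 and GBP4. All 10 were found by symbol among the 15832 genes of the deposited table. They were chosen with their levels in both groups already in view, because GBP4 was higher and IFIT1 lower after VCPIP1 was targeted, so their differences between the groups are given as a description, with no test. AsPC-1, a human pancreatic cancer cell line, received either a control siRNA (3 libraries, siControl) or one directed at VCPIP1 (3 libraries, siVCPIP1), and RNA was taken after 48 h. VCPIP1 is a deubiquitinating enzyme that acts with the ATPase p97, and the series title links it to Hippo/YAP signalling. Both groups received an siRNA, both come from 1 cell line, and the labels name neither the siRNA sequence nor whether each library is a culture of its own, so p-values rest on a spread among libraries that could be technical.

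Interferons are secreted proteins that warn cells of infection. Type I and type III interferons bind receptors that activate the kinases JAK1 and TYK2, which phosphorylate STAT2, and STAT2 joins IRF9 in a complex that binds a DNA element called ISRE in front of interferon-induced genes. Type II interferon acts through a different element called GAS. IFIT proteins bind foreign RNA and block its translation, IFITM proteins sit in membranes and hinder the entry of enveloped viruses, IFI44 is an induced cytoplasmic protein, and GBPs are large GTPases that gather on membranes around intracellular pathogens. Many of these genes are also expressed in tumour cells without added interferon.

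The promoter stretches of the members that hold an ISRE core are printed first, because the same element lies near the start of members that were lower and members that were higher in siVCPIP1. RefSeq promoters (GRCh38.p14, 250 bases before to 50 after the start) were matched for 7 of the 10 members, with IFIT2, IFITM2 and GBP2 not matched. The ISRE core was searched as GAAA, any 2 bases and GAAA, which reads TTTC, any 2 bases and TTTC on the other strand, and GAS as TTC, any 3 bases and GAA, which is its own complement. Each window has 30 bases, is written 5′ to 3′ on the gene's strand, and has the matches in capitals. Matches of both elements overlap in the IFITM1 window. The GBP4 match spans the start, from base -4 to base 5, and the matches in the GBP3 and IFITM1 windows end at bases 11 and 3.
IFIT1, chr10:89392504-89392533, plus strand: tagTTTCACTTTCcccTTTCGGTTTCccta
IFIT3, chr10:89332468-89332497, plus strand: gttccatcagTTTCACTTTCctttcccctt
IFI44, chr1:78649761-78649790, plus strand: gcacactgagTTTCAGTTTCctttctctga
IFITM1, chr11:314021-314050, plus strand: tacacacTTCTGAGAAACTGAAAcgacagg
IFITM3, chr11:320884-320913, minus strand: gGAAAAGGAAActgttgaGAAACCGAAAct
GBP3, chr1:89022853-89022882, minus strand: cTTCCTTGAAagaagtacTTTCAGTTTCat
GBP4, chr1:89198927-89198956, minus strand: gtgcatgtccTTTCAATTTCggttctcaca
All 7 matched members held the ISRE core in at least 1 promoter, against 4.38% of the 27305 genes in the promoter table and 3.80% of the 8870 genes tested here that have a promoter. IFIT1, IFIT3, IFITM1 and IFITM3 each held 2 matches in 1 promoter. GAS was matched in IFITM1 and GBP3, against 9.38% of all genes. These matches describe letters in a window and do not show that a factor was bound.

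The libraries of the groups differed as a whole. The median TPM (a length-scaled share of a library's transcripts) over all genes was 6.18 to 7.44 in siControl and 1.24 to 2.26 in siVCPIP1, with replicate 3 at the top of the siVCPIP1 range. Read depth is unknown, because TPM keeps no record of it. VCPIP1 itself went from 2.74 ± 0.44 to 0.167 ± 0.090 TPM (SD, n = 3 each; exact permutation p = 0.1, two-sided, the smallest that 3 against 3 allows), a log2 difference of -1.68. That difference turned to 0.28, not called (limma, adjusted p = 0.053), after each library's trend on GC content and length was removed, and as deposited 827 of the 1093 genes in the GC bin of VCPIP1 were more negative than it. The siVCPIP1 mean of VCPIP1 was 6.1% of the control mean. At so low a control level the pseudocount of 1 TPM limits how negative the difference can be, and so limits this rank and the corrected value. With a pseudocount of 0.1 the difference was -3.45 (limma, adjusted p = 0.00014). Markers of an epithelial cancer cell were abundant (8 of 9 at a mean of 1 TPM or more, including KRT8, KRT18 and KRT19), with summed levels of 14110 to 16280 TPM in siControl and 21210 to 24120 in siVCPIP1. The keratins carry that sum. MSLN had a mean of 261.5 TPM in siControl and 341.9 TPM in siVCPIP1, with overlapping groups. Other markers of the list were lower in siVCPIP1, with EPCAM going from a mean of 171.9 to 5.96 TPM, CDH1 from 28.9 to 0.677 TPM, MUC1 from 55.4 to 20.4 TPM and CEACAM6 from 2.38 to 0.307 TPM. Of the immune markers only CD68 and LYZ, of the fibroblast markers only LUM and of the endothelial markers none reached a mean of 1 TPM. PTPRC, the pan-leukocyte marker, lay between 0.20 and 0.66 TPM in all libraries. The summed immune list was 145.2 to 151.7 TPM in siControl and 122.7 to 160.3 in siVCPIP1, and the fibroblast list 45.4 to 69.1 and 1.53 to 4.59 TPM. The part of these in the results below was not tested. In bulk RNA, fewer cells of a type and less RNA per cell cannot be told apart.

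The 3 IFIT genes, which lie side by side on chromosome 10, were all far lower in siVCPIP1. IFIT1, which binds the cap of foreign mRNA, was measured at 39.49, 46.73 and 26.98 TPM in siControl and at 0.94, 1.25 and 2.95 TPM in siVCPIP1. The lowest control library stood above the highest siVCPIP1 library, and siVCPIP1 replicate 3 was the highest of its group. The mean went from 37.7 ± 9.99 to 1.71 ± 1.08 TPM (SD, n = 3), so siVCPIP1 kept 4.54% of the control level, and on the log2(TPM + 1) scale, which understates differences of low genes, the difference was -3.87 (SE 0.31). Of the other genes among the 10966 tested, 1.15% had a more negative difference. IFIT2, its partner in IFIT complexes, was measured at 36.49, 39.20 and 25.21 TPM in siControl and at 2.19, 1.85 and 5.56 TPM in siVCPIP1. The groups did not overlap, the difference was -3.12 (SE 0.33), and replicate 3 again stood above the other siVCPIP1 libraries. IFIT3, which stabilises IFIT1, was the most abundant of the 3 in every library, at 71.04, 81.35 and 68.95 TPM in siControl and at 9.34, 9.28 and 19.85 TPM in siVCPIP1. It kept 17.4% of its control mean, more than IFIT2 (9.51%) and IFIT1, and its difference was -2.52 (SE 0.27).

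IFI44 on chromosome 1 followed the IFIT genes. It was measured at 33.15, 36.91 and 28.97 TPM in siControl and at 1.09, 1.32 and 4.91 TPM in siVCPIP1. The mean went from 33.0 ± 3.97 to 2.44 ± 2.14 TPM (SD, n = 3), a difference of -3.47 (SE 0.37) on the log2 scale. The groups did not overlap, but replicate 3 was over 3 times as high as either of the other siVCPIP1 libraries.

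The IFITM genes, a cluster at one end of chromosome 11, differed from the IFIT genes in both level and direction. IFITM3, which restricts virus entry from endosomes, was measured at 1960.17, 1783.41 and 1769.52 TPM in siControl and at 3619.77, 3721.46 and 2792.37 TPM in siVCPIP1. Every siVCPIP1 library was above every control library, with a mean 1.84 times that of siControl and a difference of 0.87 (SE 0.14) on the log2 scale. IFITM2, its close paralog, was at 953.41, 897.50 and 1029.94 TPM in siControl and at 1605.98, 1593.71 and 1394.94 TPM in siVCPIP1, also without overlap, a difference of 0.67 (SE 0.12). IFITM1, the member found at the cell surface, was at 42.05, 36.48 and 46.86 TPM in siControl and at 38.70, 39.93 and 34.70 TPM in siVCPIP1. Its groups overlapped, and the difference of -0.14 (SE 0.15) was smaller than its error. The IFITM genes share sequence and overlap, which makes their separate values uncertain: 39.0% of the 50-base words of the IFITM1 transcript also occur in IFITM2 transcripts, 10.4% of those of IFITM2 in IFITM3 and 14.4% of those of IFITM3 in IFITM2 (GENCODE 29), and IFITM1 lies within the annotated span of IFITM2. Overlap also touches other members: LIPA spans IFIT1, IFIT2 and IFIT3 on the opposite strand, and GBP7 overlaps GBP2 by 18706 nt on the same strand. How the authors assigned such reads, and whether by strand, is not given in the sources used here.

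The 3 GBP genes, also clustered on chromosome 1, did not move together. GBP4 was measured at 22.39, 19.04 and 24.26 TPM in siControl and at 44.76, 46.69 and 31.66 TPM in siVCPIP1. All siVCPIP1 libraries were above all control libraries, replicate 3 was the lowest of its group, and the mean went from 21.9 ± 2.65 to 41.04 ± 8.18 TPM (SD, n = 3), a difference of 0.86 (SE 0.19) on the log2 scale. GBP3 went the other way, from 8.60, 9.09 and 4.66 TPM to 0.27, 0.38 and 0.80 TPM, without overlap and with a difference of -2.48 (SE 0.25). Its siVCPIP1 mean was 0.483 TPM, where the pseudocount of 1 TPM limits a negative difference (-3.74 with a pseudocount of 0.1). GBP2 had the lowest siControl mean of the members, at 0.88, 0.91 and 0.96 TPM in siControl and at 0.52, 0.48 and 0.42 TPM in siVCPIP1. Its groups did not overlap either, but at this level the log2(TPM + 1) difference is only -0.38 while the mean was 51.6% of the control.

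**Figure D1:**
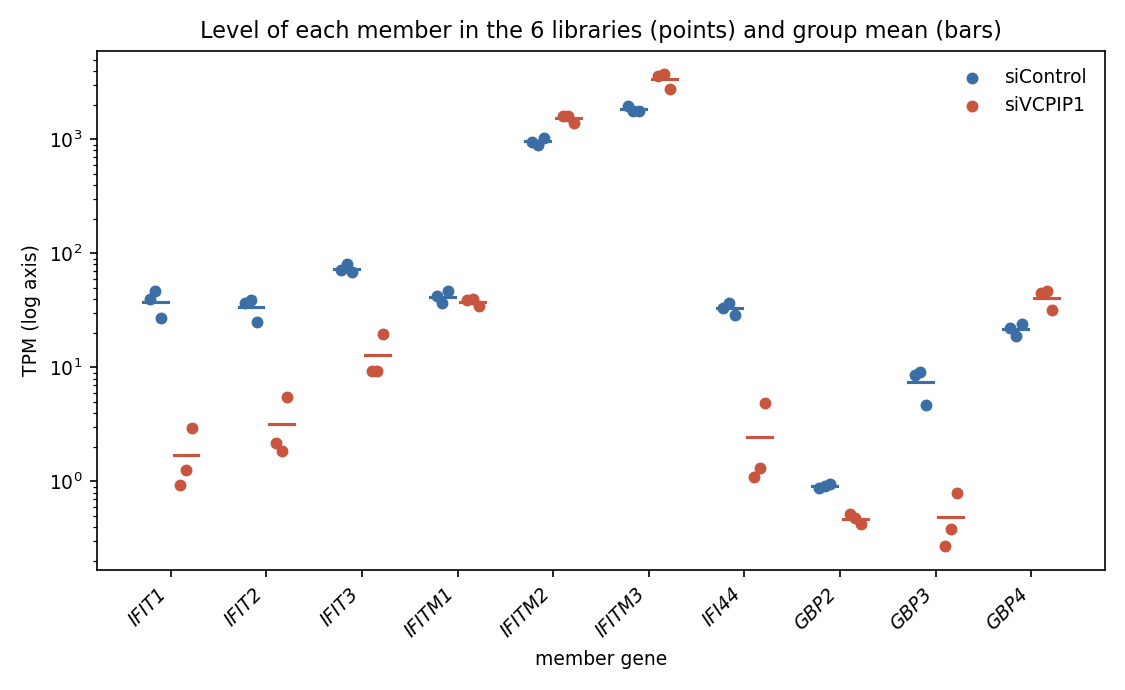
TPM of the 10 members (log axis) in the 3 siControl and 3 siVCPIP1 libraries, one point per library in replicate order from left to right, with a bar at each group mean. IFIT1, IFIT2, IFIT3, IFI44 and GBP3 sit far lower in siVCPIP1, IFITM2, IFITM3 and GBP4 higher, and the IFITM1 groups overlap.

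Over all 10 members the groups did not overlap in 9. Of these 6 were lower in siVCPIP1 and 3 higher, where 67.9% of all genes tested were lower and 18.2% higher without overlap. The members were chosen with this contrast in view, so nothing is read from that count. The median difference of the 10 members was -1.43, against -1.12 for all genes tested, and it falls in a gap between GBP2 (-0.38) and GBP3 (-2.48), so it describes no single member. Of the 10 members 9 passed the filter of a mean of at least 1 TPM used for the tests across genes. GBP2 did not, and GBP3 passed only through its siControl level.

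The order of levels within the set changed between the groups. In siControl it ran from IFITM3, IFITM2 and IFIT3 down through IFITM1, IFIT1, IFIT2 and IFI44 to GBP4, GBP3 and GBP2. IFITM1, IFIT1, IFIT2 and IFI44 did not differ from their neighbours beyond the range of the libraries, while every other step did. In siVCPIP1 GBP4 took the third place, level with IFITM1 within the range of the libraries, and IFIT3, IFIT2, IFI44 and IFIT1 followed. IFIT2 and IFI44, IFI44 and IFIT1, and GBP3 and GBP2 overlapped there. IFITM3 and IFITM2 were among the most abundant transcripts of the cell line, above 99.4% and 99.0% of all listed genes in siControl.

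The split among the members ran alongside the base composition of their transcripts. The longest protein-coding transcript (GENCODE 29, GRCh38) has a GC content of 42.2% in IFIT1, 42.8% in IFIT2, 44.3% in IFIT3 and 39.1% in IFI44, all lower in siVCPIP1. It is 52.5% in IFITM1, 55.4% in IFITM2 and 56.9% in IFITM3, whose transcripts are also the shortest of the set at 855, 892 and 808 nt. Over all tested genes, ranked by GC content and divided into 10 bins, the median difference climbed from -2.23 in the lowest bin to 0.49 in the highest. IFIT1, IFIT2, IFIT3 and IFI44 lay below the median of their own bins (-2.03, -2.03, -1.74 and -2.18), and the 3 IFITM genes lay above theirs (-0.95, -0.44 and -0.14). The part of GC content in these differences was not tested.

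GBP4 did not follow that gradient. At 41.8% GC and 6127 nt it has nearly the composition of GBP3 (41.7%, 3067 nt), and both fall in the same bin of 1092 genes with a median difference of -2.03. Of the other genes of the bin 1 had a more positive difference than GBP4 and 1090 a more negative one. The set was chosen because GBP4 was higher, so this rank follows from that choice and is a description only. For GBP3, 341 other genes of the bin were more negative and 750 more positive. GBP4 and GBP3 lie on the same strand of chromosome 1, at 89181148 to 89198932 and 89006666 to 89022894 (GRCh38), and 4.08% and 4.14% of their 50-base words occur in transcripts of other genes, so shared sequence touches a small part of either.

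**Figure D2:**
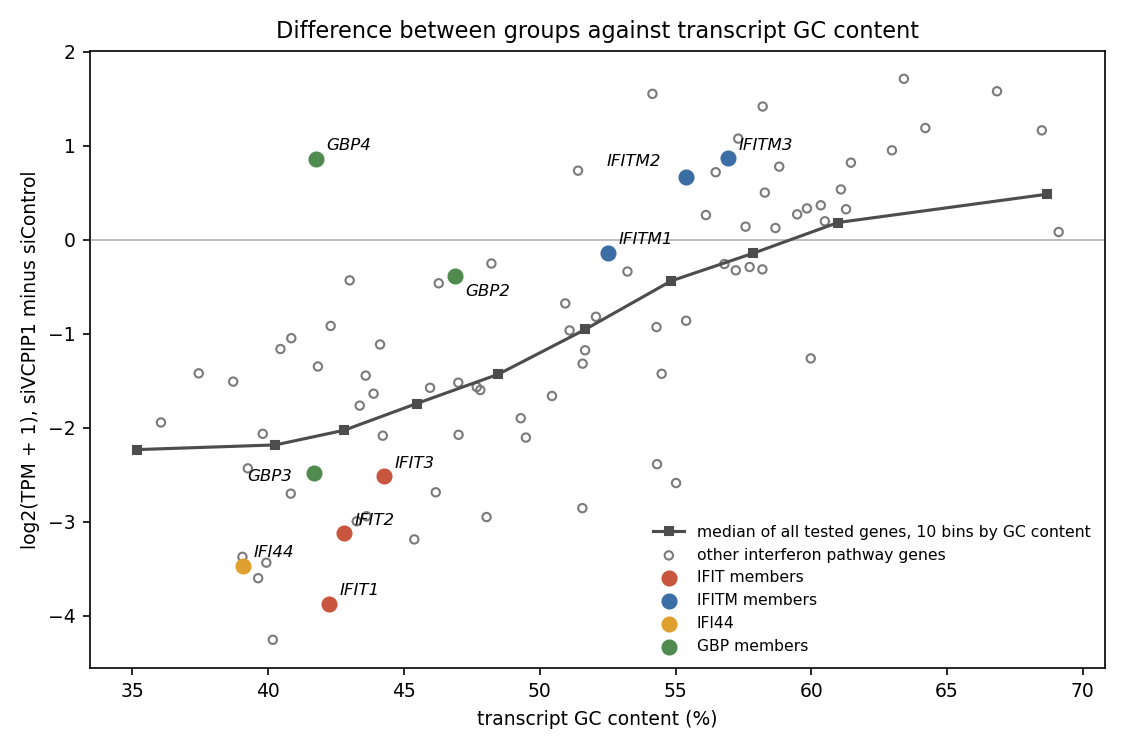
Difference in log2(TPM + 1) between siVCPIP1 and siControl (vertical axis) against transcript GC content in percent (horizontal axis) for the members (filled), the other tested interferon pathway genes (open) and the median of all tested genes in 10 GC bins (squares and line, from -2.23 to 0.49). GBP4 stands at 0.86 where its bin has a median of -2.03, while IFIT1 lies below the line at -3.87. Both were in view when the set was chosen.

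Since the median of all genes shifts with the scaling, from -1.12 as deposited to -0.14 with median-of-ratios factors and 0.03 with quantiles made equal, each member was also read under these scalings and after removal of each library's trend on GC content and length (median of all genes 0.06). IFIT1, IFIT2, IFIT3, IFI44 and GBP3 stayed negative and IFITM2, IFITM3 and GBP4 stayed positive under all of them. IFIT1 was at -2.90, -2.61 and -1.78 under the 3 alternatives and GBP4 at 2.05, 1.82 and 2.89. IFIT3 and GBP3 shrank to -0.44 and -0.23 after the GC and length correction, with IFI44 at -1.03 and IFIT2 at -1.005. The pseudocount also limits the GBP3 value, as its siVCPIP1 level was low. IFITM1 turned positive, at 1.06, 0.60 and 0.11, and so did GBP2, at 0.12, 0.69 and 1.38. At the GBP2 control mean of 0.917 TPM the pseudocount limits any negative difference, so its sign after GC and length correction cannot bear on its direction. No direction is given for IFITM1 and GBP2.

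**Figure D3:**
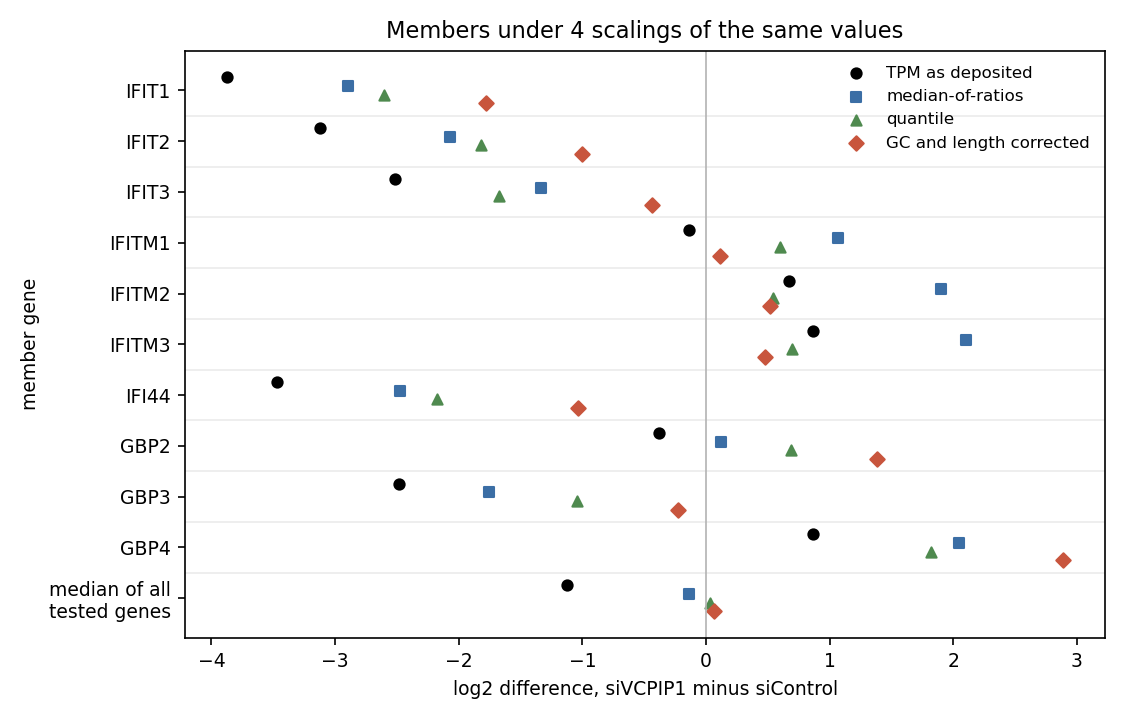
Log2 difference between siVCPIP1 and siControl (horizontal axis) of each member and of the median of all tested genes, with TPM as deposited and under 3 alternative scalings (marker shapes). IFIT1 (-3.87 to -1.78) and GBP4 (0.86 to 2.89) keep their sides of 0, and IFITM1 and GBP2 cross it.

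The rest of the interferon pathway was taken from 7 lists by role, none of whose genes is a member. Of 101 genes on these lists 93 were in the table and 75 were tested. Among those named below, IFNGR1, IFNLR1, IFIH1, TBK1, CGAS, IFIT5 and DDX60 had a siVCPIP1 mean under 1 TPM and passed the filter only through siControl. In siVCPIP1 46 of them fell and 14 rose (limma, adjusted p under 0.05), against 66.0% lower and 15.0% higher of all 10966 genes tested. Their median difference was -1.05, against -1.12 for all genes. The split depended on the scaling, with 32 lower and 31 higher under median-of-ratios factors, 22 lower and 36 higher under quantiles, and 21 lower and 30 higher once GC and length trends were removed. The split of all genes tested moved as well, to 4951 lower and 4416 higher, 4258 and 4625, and 3512 and 4056 (of 10924) in the same order. Counts given below for single lists under these scalings stand beside those of all genes. All 14 genes that rose kept that call under all 3, and 16 of the 46 that fell did, while 15 of the 46 were called higher under at least 1 of the 3. Median-of-ratios factors shift differences upward (median of all tested genes -0.14), so under them a rise keeps its call more easily than a fall. The share of all tested genes that kept a call was not computed, so nothing is read from these counts.

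Of the interferons, which are the ligands, 5 of 10 were listed and 3 tested. IFNL1, a type III interferon, rose from 3.68 ± 0.44 to 6.69 ± 0.38 TPM (SD, n = 3; log2 difference 0.72, limma, adjusted p = 0.0048), and was named after its values were seen. IFNL2 and IFNL3 were not called as deposited or after GC and length correction, where the median of the 3 tested ligands was -0.34. Both were called higher under median-of-ratios and quantile scaling, where 4416 and 4625 of all genes tested were. IFNB1, the type I interferon most cells make first, lay between 0 and 0.22 TPM in all libraries.

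All 6 receptor subunits fell, as deposited, where 66.0% of all genes tested fell. This list had 4 lower and 0 higher under median-of-ratios scaling, 4 lower and 2 higher under quantile scaling and 3 lower and 1 higher under GC and length correction. IFNGR1, the ligand-binding chain of the type II receptor, fell from 32.1 ± 4.84 to 0.81 ± 0.73 TPM (log2 difference -4.26, limma, adjusted p = 2.0e-05), further than IFIT1. The log2 difference was -2.59 for IFNGR2, -2.07 for IFNAR2 and -1.57 for IL10RB, which was not called after GC and length correction. IFNAR1, the other chain of the type I receptor, fell by 0.92 but was at 0.14, 0.68 and 1.07 under median-of-ratios, quantile and GC and length scaling. It was called higher under the last 2 (limma, adjusted p = 0.0081 and 0.00099). IFNLR1, the specific chain of the type III receptor, fell by 0.93 and was called higher, at 0.41, after quantile normalization (limma, adjusted p = 0.019). It went from a mean of 2.18 to 0.667 TPM, where the pseudocount limits a negative difference (-1.57 with a pseudocount of 0.1).

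Of the 11 kinases and factors tested between receptor and gene, 6 fell and 2 rose as deposited, where 66.0% of all genes tested fell and 15.0% rose. The counts were 4 and 5 with median-of-ratios factors, 3 and 6 with quantiles made equal, and 4 and 4 with GC and length trends removed. The log2 differences of IRF2, JAK1 and STAT3 were -3.19, -2.69 and -1.66, of which STAT3 was not called with quantiles made equal (-0.28, limma, adjusted p = 0.098) or with GC and length trends removed (-0.34, limma, adjusted p = 0.060). STAT2 fell by 1.32 and IRF9 by 0.86, but neither held under every scaling: STAT2 was not called under any of the 3, and IRF9 was at 0.44 after quantile normalization. Without siControl replicate 2 the IRF9 call was lost (-0.80, limma, adjusted p = 0.050). IRF1 was not called (-0.34, limma, adjusted p = 0.21), was at -0.60 and called without siVCPIP1 replicate 3 (limma, adjusted p = 0.00027), and at 0.84, 0.68 and 0.64 under the 3 scalings. The genes that rose were IRF7, from 38.2 ± 10.2 to 115.6 ± 25.8 TPM (log2 difference 1.58, limma, adjusted p = 0.00025), and IRF3, by 0.82, both factors that switch on interferon genes and both named after their values were seen.

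Of 11 sensors and adaptors tested 7 fell and 1, TICAM1, rose by 0.95 (named after its values were seen), where 66.0% of all genes tested fell and 15.0% rose. The other scalings gave this list 5 lower and 4 higher (median-of-ratios), 2 lower and 4 higher (quantile) and 2 lower and 5 higher (GC and length). IFIH1, the cytoplasmic sensor MDA5, fell from 13.1 ± 2.68 to 0.793 ± 0.494 TPM (SD, n = 3), and the kinase TBK1 that relays the signals of several sensors had a difference of -2.43, which with GC and length trends removed was -0.09 and not called (limma, adjusted p = 0.48). The RNA-activated kinase EIF2AK2 and the DNA sensor CGAS fell by 1.51 and 1.44, but both were called higher after GC and length correction, at 0.44 and 0.65 (limma, adjusted p = 0.0093 and 0.0019). Of 9 negative regulators 6 fell and 1, IRF2BP1, rose by 1.16 (named after its values were seen), beside the same shares of all genes tested. This list had 4 lower and 3 higher under median-of-ratios scaling, 4 of each under quantile scaling and 5 lower and 2 higher under GC and length correction. The related IRF2BP2 fell by 2.95, the ISG15 protease USP18 by 2.85, and the phosphatases PTPN2 and PTPN1 by 2.06 and 1.90, with PTPN2 at 0.24 and not called after GC and length correction.

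Among relatives of the members, IFIT5 fell from 2.55 ± 0.54 to 0.317 ± 0.025 TPM (log2 difference -1.42, limma, adjusted p = 2.6e-05), but was at 0.89 and called higher after GC and length correction. IFITM10 rose from 12.6 ± 2.20 to 18.6 ± 2.25 TPM (log2 difference 0.54, limma, adjusted p = 0.030), and this call was lost in 4 of the 6 fits with 1 library left out, at 0.41 to 0.56. IFI44L, GBP1, GBP5 and GBP6 lay below the filter. GBP1 was at 0.55, 1.10 and 0.43 TPM in siControl and listed at 0, 0 and 0.02 TPM in siVCPIP1, IFI44L at 0.15, 0.11 and 0.15 TPM and at 0, 0 and 0.08 TPM. GBP5 was at 0.39, 0.45 and 0.35 TPM in siControl and at 0.16, 0.11 and 0.15 TPM in siVCPIP1. GBP6 lay between 0.18 and 0.34 TPM, with overlapping groups.

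Of 33 other interferon-stimulated genes tested 20 fell, 8 rose and 5 were not called, where 66.0% of all genes tested fell and 15.0% rose, and the split was 14 lower and 15 higher under median-of-ratios factors, 9 lower and 16 higher under quantiles, and 7 lower and 15 higher once GC and length trends were removed. The scramblase PLSCR1 fell by 3.60 and the STAT-interacting protein NMI by 3.43, while the differences were -3.37 for the helicase DDX60 and -2.70 for the mitochondrial RNase PNPT1. The 8 that rose, named after their values were seen, were ISG15, ISG20, OASL, BST2, IFI27, IFI35, LY6E and UBA7. The ubiquitin-like modifier ISG15 rose from 1648 ± 294 to 5417 ± 987 TPM (log2 difference 1.71, limma, adjusted p = 3.4e-05), and UBA7, the enzyme that activates it, by 0.50, a call lost without siControl replicate 1 (0.46, limma, adjusted p = 0.060). The exonuclease ISG20 rose by 1.55 and the tetherin gene BST2, whose product holds budding viruses at the membrane, by 1.08. OASL rose by 0.74 at 51.4% GC, where the median of its bin was -0.95, and ISG20 has 54.15% GC, in a bin at -0.44. The others have more GC. BST2, IFI27, IFI35 and UBA7, at 57.3% to 58.8%, lay in a bin with a median of -0.14. ISG15 and LY6E, at 63.4% and 64.2%, lay in a bin at 0.49. The part of GC content in these rises was not tested.

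**Figure D4:**
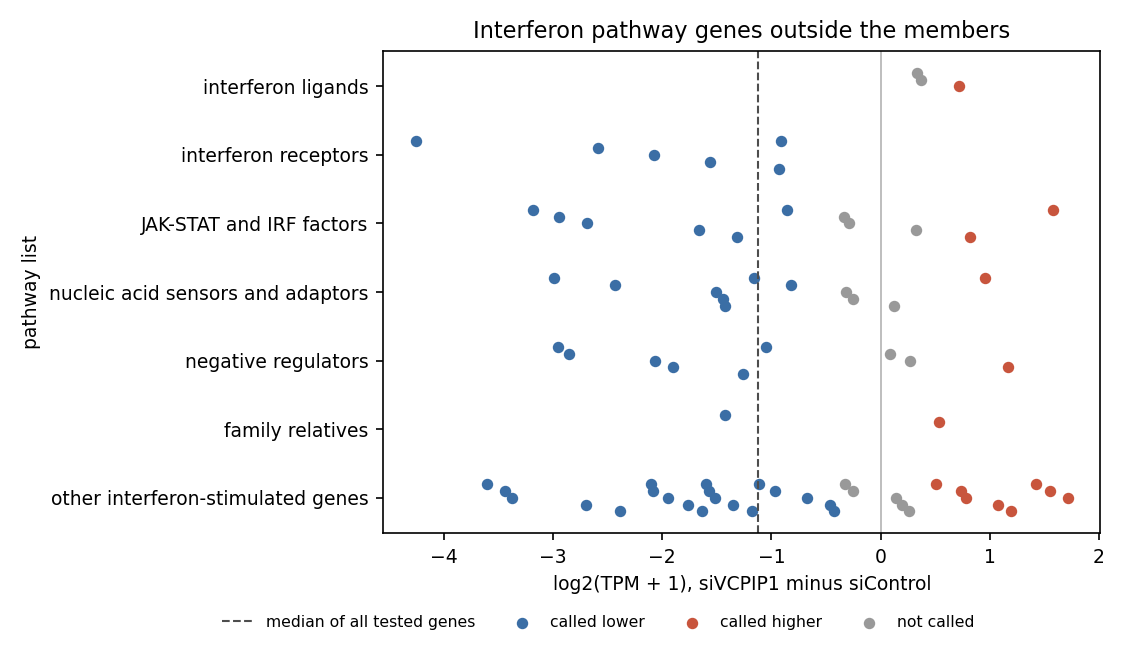
Difference in log2(TPM + 1) between siVCPIP1 and siControl (horizontal axis) for the 75 tested interferon pathway genes, one point per gene, by list, coloured by call at an adjusted p of 0.05 (limma). The dashed line is the median of all tested genes (-1.12); all 6 receptor subunits lie left of 0 and 8 of the 33 other interferon-stimulated genes are called higher.

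The ISRE core was also searched in the other interferon-stimulated genes and family relatives that have a promoter in the table. It was matched in 12 of 19 that fell, 4 of 5 that rose and 2 of 5 not called. No test was made of these shares.

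Outside the pathway, the genes whose values over the 6 libraries were most like those of IFIT1 were ACTR2, ENOPH1 and ARFGAP3, out of 7728 candidates with a mean of at least 5 TPM. Likeness was the root mean square distance of log2(TPM + 1), each gene centred on its siControl mean, and was 0.051, 0.088 and 0.089 for these. ACTR2, a subunit of the actin-nucleating Arp2/3 complex, was at 77.4 ± 22.2 TPM in siControl and 4.51 ± 2.12 in siVCPIP1. The genes most like GBP4 were TESPA1, CA11 and CYBC1, at distances of 0.054, 0.073 and 0.077. TESPA1 has 44.7% GC and was at 33.9 ± 5.83 TPM in siControl and 63.7 ± 11.4 in siVCPIP1, while CA11 and CYBC1 have 59.0% and 62.9% GC. None of these 6 is on an interferon list used here.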

How the data were processed

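The deposited table holds TPM per gene symbol for 6 libraries, computed by the authors per the file headers. The submitters' processing notes name the build GRCh38.p13. Which aligner, counter, annotation, strand setting and filters were used is not given in the sources used here, so reads of overlapping genes cannot be told apart by strand. Depth is unknown and no counting interval is given.

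Columns were matched to samples by title. The tests across genes used limma (version 3.58.1, under R 4.3.3) with a variance trend, 2-sided, and no covariate, on log2(TPM + 1) of the 10966 genes whose mean reached 1 TPM, with Benjamini-Hochberg adjustment over all of them and a threshold of 0.05. Member differences are differences of group means on that scale, with limma's SE. GC content and length came from GENCODE 29 for 10924 tested genes (99.6%). The trend removed for the GC and length correction was a product of natural splines with 5 and 3 degrees of freedom. The fit was also run on simulated data with independent noise, as many rises as falls and no shift of whole libraries. That run does not bear on calls made where whole libraries differ, as they do here.

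The members and lists were chosen with earlier results of these data known. Named were all members, up to 4 called genes of each list with the largest difference, the family relatives, STAT2, IRF9, IRF1, the receptors, VCPIP1, and the 3 genes nearest to IFIT1 and to GBP4. Others are marked where they occur, and 1 gene of the rule is not reported here. DDX58 is the older symbol under which RIGI is listed. Alternatives were another pseudocount, filters, scalings, no variance trend, a replicate block and leaving out each library.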

Additional observations from a re-analysis of the deposited data

How the results depend on the processing

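Median-of-ratios scaling moved the count of genes called higher from 1646 to 4416, that of pathway genes called higher to 31, and the medians of the members, all tested genes and the pathway genes to -0.61, -0.14 and 0.014. Quantile normalization gave 4258 genes lower and 4625 higher, 22 and 36 pathway genes, and medians of -0.25, 0.035 and 0.28. GC and length correction gave 3512 genes lower and 4056 higher, 21 and 30 pathway genes, and medians of -0.058, 0.064 and 0.10, and VCPIP1 lay at 0.28. The cause was not tested. Without a filter the median of all tested genes was -0.44, and with a filter of a mean of at least 5 TPM 4679 genes were called lower, since fewer genes were tested.

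Signs turned under the scalings for IFITM1 (1.06, 0.60 and 0.11, in the order above) and GBP2 (0.12, 0.69 and 1.38). They also turned after median-of-ratios scaling for IRF9 (0.29), IRF1 (0.84) and IFNAR1 (0.14), after quantile normalization for STAT2 (0.12), IRF9 (0.44), IRF1 (0.68), IFNAR1 (0.68), IFNLR1 (0.41) and EIF2AK2 (0.10), and after GC and length correction for IRF1 (0.64), IFNAR1 (1.07), IFNLR1 (0.018), IL10RB (0.055), IFIT5 (0.89), EIF2AK2 (0.44), CGAS (0.65) and PTPN2 (0.24); the cause was not tested.

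Leaving out 1 library kept every member on its side of 0, with IFIT1 at -4.18 to -3.67, GBP4 at 0.76 to 1.04 and IFITM1 at -0.23 to -0.05. Replicate numbers did not pair the libraries: deviations of equal numbers correlated at 0.53, -0.27 and 0.16 across genes. A replicate block gave 7085 genes lower and 1586 higher, and 45 and 14 pathway genes. At a low control level (GBP2 and GBP1 under 1 TPM, and also VCPIP1, IFNLR1, IFIT5 and CGAS) the pseudocount limits any log2 difference, which for GBP2 was -0.83 with a pseudocount of 0.1. Low siVCPIP1 levels had a like effect for GBP3 and IFIT1, at -3.74 and -4.51 with a pseudocount of 0.1.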

Other observations

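Ratios of 2 members within a library do not depend on any factor that scales the whole library, although GC content and length can still act on them. IFIT1 stood at 0.56, 0.57 and 0.39 times IFIT3 in the siControl libraries and at 0.10, 0.13 and 0.15 times in the siVCPIP1 libraries, without overlap. IFIT2 stood at 0.51, 0.48 and 0.37 times IFIT3 and at 0.23, 0.20 and 0.28 times. IFIT1 was thus above IFIT2 in all 3 control libraries (1.07 to 1.19 times) and below it in all 3 siVCPIP1 libraries (0.43 to 0.68 times). The ratio of IFITM3 to IFITM2 overlapped between the groups, at 1.72 to 2.06 and 2.002 to 2.34. GBP4 was 2.60, 2.10 and 5.21 times GBP3 in siControl and 165.8, 122.9 and 39.6 times in siVCPIP1.

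Because IFITM3 and IFITM2 dominate the set, the summed TPM of the 10 members was higher in siVCPIP1 (5009 ± 626) than in siControl (3048 ± 110; SD, n = 3), although IFIT1, IFIT2, IFIT3, IFI44 and GBP3 were lower. The summed IFIT level went the other way, from 145.1 ± 23.1 to 17.7 ± 9.20 TPM. For 8 of the 10 members siVCPIP1 replicate 3 was the siVCPIP1 library closest to the siControl mean, as it was for 84.0% of all tested genes.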
